A study of Mus musculus and Homo sapiens with 20 samples.

Results

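The regions described here are the stretches of open chromatin that lie in or near the mouse collagen genes, the genes whose symbols are Col, a type number, a and a chain number. They were read from ATAC-seq, an assay that uses the transposase Tn5 to tag open DNA, in 12 libraries of mouse hepatocytes from a study that asks how AhR, the aryl hydrocarbon receptor, responds to vitamin B2 in liver. Peaks of the 12 lists that shared at least 1 bp were joined into regions, and a region was taken as a collagen region where its nearest protein-coding gene body within 50 kb was one of 44 collagen genes. This gave 2185 collagen regions out of 642948 regions on the mm10 build. Of these, 1641 lay inside a gene, 137 within 1 kb of a gene's end and 407 farther outside.

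All 12 libraries came from hepatocytes labelled as carrying a floxed Ahr gene (AhR_flox) and as collected at 4 weeks. The 4 groups of 3 libraries were B2_minus with Ad_Cont, control with Ad_Cont, B2_minus with Ad_Cre and control with Ad_Cre. B2_minus stands for vitamin B2 deficiency in the labels. Cre is the recombinase that removes DNA between loxP sites, so Ad_Cre is the arm meant to lose Ahr. The labels used here give no promoter for the Cre, no sex or age of the animals and no statement of how completely Ahr was removed. Nor do they say that replicates were separate animals or cultures, and a p-value here reflects no more than the spread among these libraries, which could be technical. In or near Ahr, 9 regions had a peak in every library, some of them outside the gene. Their log2 fold changes for Ad_Cre over Ad_Cont lay between -0.30 and 0.21, with a lowest edgeR adjusted p of 0.411. Accessibility thus gave no check of the deletion.

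Collagens are triple-helical proteins of the extracellular matrix. Fibrillar collagens bear tension, type IV collagens form the sheet of basement membranes, and FACIT, beaded filament, short chain, anchoring fibril, multiplexin and transmembrane collagens link, coat or anchor those structures. In liver, the collagen of scars is made mainly by hepatic stellate cells and portal fibroblasts, whereas hepatocytes are known as a source of type XVIII collagen, whose C-terminal fragment is endostatin. The AhR is a ligand-activated transcription factor that binds DNA sites with the core GCGTG.

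The lists held 200698 to 281141 peaks per library with 3897632 to 5557678 listed tags, and the lowest listed count was 6 to 8 tags, so a weaker site is absent from a list rather than listed at 0. The sequencing depth behind the lists is unknown. A region's value in a library, in scaled tags, was its highest peak count after TMM scaling to the mean library. All 10 hepatocyte marker genes had regions with a peak in every library, 107 regions in all, whereas 5 of 7 Kupffer cell markers (Adgre1, Cd5l, Clec4f, Timd4 and Vsig4) and the stellate cell markers Hgf and Lum had none. The other 8 of 10 stellate and fibroblast markers, all 8 endothelial markers and all 6 bile duct markers did have such regions. In bulk libraries fewer cells of a type and less open chromatin per cell cannot be told apart.

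The promoters of the collagen genes were the first place where the genes separated. RefSeq promoter windows on GRCm38.p6 (the assembly of mm10), from 250 bases before to 50 after a gene's start, were matched by symbol for 35 of the 44 genes, in 38 windows. Col12a1, Col14a1, Col1a1, Col22a1, Col26a1, Col2a1, Col4a3, Col5a2 and Col9a3 had none. The 6 windows printed here are those of collagens with a strong promoter peak (Col18a1 and Col27a1), of a scar collagen with a weak peak (Col1a2) and of collagens with no peak (Col3a1 and Col15a1). They are written 5′ to 3′ on the gene's strand. Capitals mark matches, on either strand, to the motifs searched, which were GCGTG (the AhR response element core), CCAAT (the CCAAT box), GGGCGG (the GC box), TATAAA (the TATA box) and TGANTCA (the AP-1 site). A capital run may thus be the reverse complement of its motif, and different motifs may share letters.
Col18a1 first window (chr10:77113656-77113955, minus strand): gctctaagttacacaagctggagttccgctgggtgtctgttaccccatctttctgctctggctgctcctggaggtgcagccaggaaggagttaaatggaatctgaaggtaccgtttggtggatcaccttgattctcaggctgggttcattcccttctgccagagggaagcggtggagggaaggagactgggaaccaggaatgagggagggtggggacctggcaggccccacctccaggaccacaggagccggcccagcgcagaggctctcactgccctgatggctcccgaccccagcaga
Col18a1 second window (chr10:77166481-77166780, minus strand): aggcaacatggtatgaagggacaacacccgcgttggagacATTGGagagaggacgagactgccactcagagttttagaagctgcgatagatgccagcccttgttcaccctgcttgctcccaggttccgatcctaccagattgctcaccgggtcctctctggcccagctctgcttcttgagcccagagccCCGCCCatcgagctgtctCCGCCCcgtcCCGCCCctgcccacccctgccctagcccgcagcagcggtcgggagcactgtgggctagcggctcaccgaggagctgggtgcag
Col27a1 (chr4:63215162-63215461, plus strand): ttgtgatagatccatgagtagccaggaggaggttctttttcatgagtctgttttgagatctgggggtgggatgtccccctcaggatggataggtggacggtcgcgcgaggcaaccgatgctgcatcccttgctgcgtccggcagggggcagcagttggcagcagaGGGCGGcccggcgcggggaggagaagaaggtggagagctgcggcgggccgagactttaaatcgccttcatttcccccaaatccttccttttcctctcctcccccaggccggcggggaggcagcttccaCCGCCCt
Col1a2 (chr6:4505368-4505667, plus strand): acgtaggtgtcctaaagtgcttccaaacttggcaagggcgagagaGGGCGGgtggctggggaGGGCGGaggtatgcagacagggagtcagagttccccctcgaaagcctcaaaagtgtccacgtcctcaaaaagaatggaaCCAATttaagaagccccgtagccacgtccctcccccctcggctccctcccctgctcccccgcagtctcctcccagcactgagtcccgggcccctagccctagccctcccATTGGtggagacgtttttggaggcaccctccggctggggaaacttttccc
Col3a1 (chr1:45311288-45311587, plus strand): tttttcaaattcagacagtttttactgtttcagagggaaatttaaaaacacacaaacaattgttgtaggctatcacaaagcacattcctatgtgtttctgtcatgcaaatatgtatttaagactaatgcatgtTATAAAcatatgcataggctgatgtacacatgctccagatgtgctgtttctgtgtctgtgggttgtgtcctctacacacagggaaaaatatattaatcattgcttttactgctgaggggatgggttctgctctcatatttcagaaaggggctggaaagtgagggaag
Col15a1 (chr4:47207762-47208061, plus strand): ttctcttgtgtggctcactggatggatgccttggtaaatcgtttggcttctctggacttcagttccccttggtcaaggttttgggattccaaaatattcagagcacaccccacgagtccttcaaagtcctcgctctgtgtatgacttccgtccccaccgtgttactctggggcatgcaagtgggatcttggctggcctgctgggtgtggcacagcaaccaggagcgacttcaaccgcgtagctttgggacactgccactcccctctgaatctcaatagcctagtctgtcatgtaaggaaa

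Both Col18a1 windows had a peak in all 12 libraries, with 48.8, 53.8 and 62.7 scaled tags (lowest, median and highest library) at the first and 39.4, 44.6 and 47.9 at the second. These were the highest medians of any collagen promoter measured. The first Col18a1 window held no match to the motifs searched, and the second held 1 CCAAT and 3 GGGCGG matches, while the Col15a1 window, with no peak, held none. The Col27a1 window had 25.4, 34.2 and 44.8 scaled tags. Col4a1 and Col4a2, which encode the chains of the common type IV network and start back to back, shared a peak with 29.0, 33.6 and 41.8 scaled tags. At Col1a2, a chain of type I collagen, a peak was listed in 8 of 12 libraries, 4 B2_minus and 4 control, with 6.35 to 11.1 scaled tags, values near the lowest listed counts. The Col3a1 window, the start of the type III chain, had no peak in any library, a GC content of 37.7% and 1 TATAAA match.

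Across the 38 collagen windows, 14 (36.8%) had a peak in all 12 libraries, against 56.8% of 21044 windows of protein-coding genes. Another 17 (44.7%, against 14.9%) had a peak in 1 to 11 libraries and 7 (18.4%, against 28.3%) in none. Collagen promoters were thus listed in some libraries and missed in others at a larger share than promoters at large. In the 17 such windows the median where listed was 6.35 to 10.3 scaled tags, where the lists end at 6 to 8 tags. Among windows with an observed over expected CpG ratio of at least 0.6, 6 of 11 collagen windows (54.5%) had a peak in every library, against 88.1% of all such windows. Below that ratio the shares were 8 of 27 (29.6%) and 27.4%. These shares are descriptions and were not tested.

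**Figure D1:**
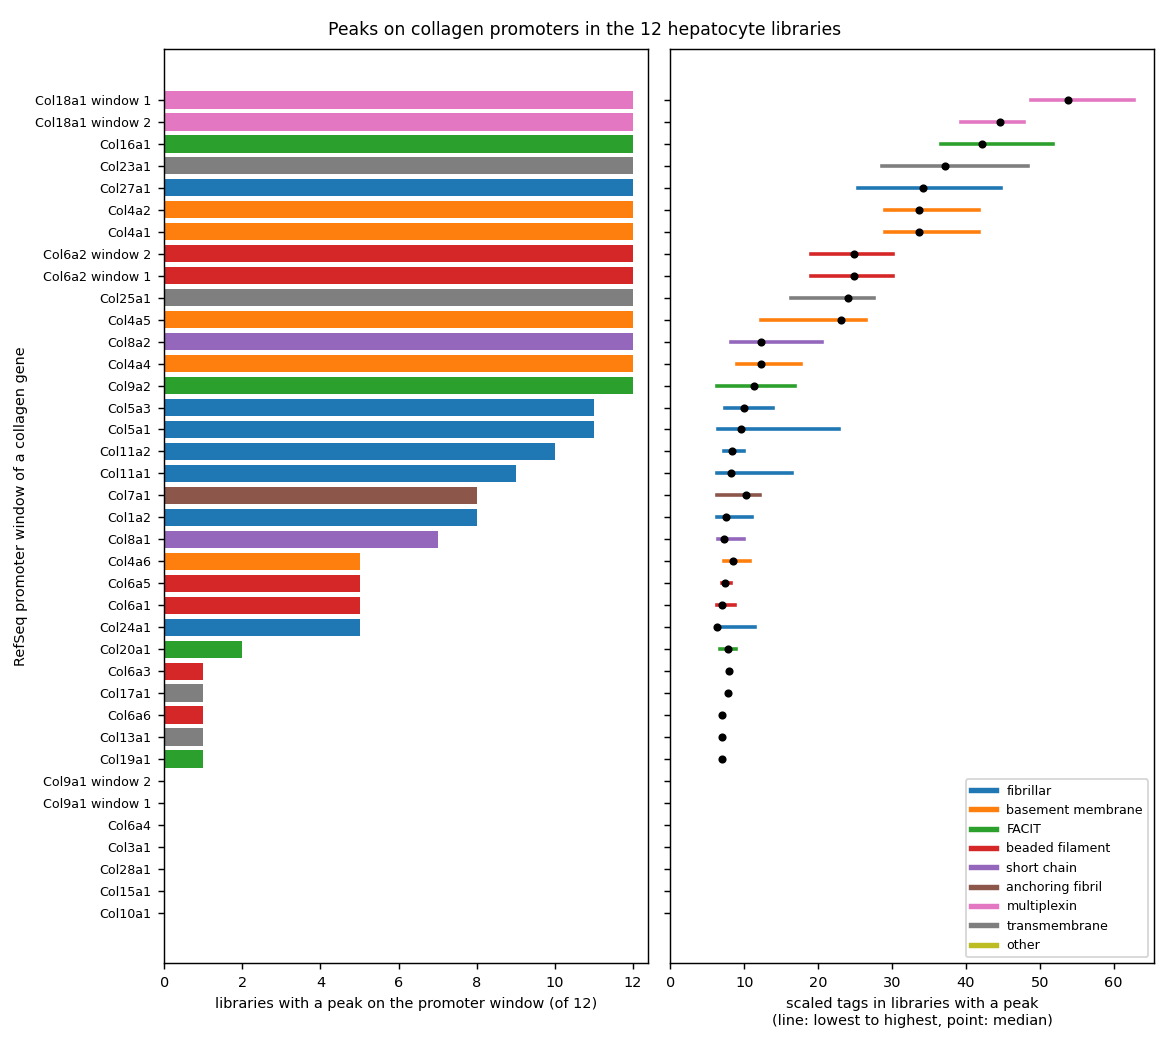
Number of libraries (of 12) with a peak on each RefSeq promoter window of a collagen gene (left) and the scaled tags in those libraries (right, line from lowest to highest and point at the median), coloured by collagen class. Both Col18a1 windows stand at the top with medians of 53.8 and 44.6 scaled tags, and 7 windows have no peak.

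The other promoters with a peak in every library belonged to Col16a1 (median 42.2 scaled tags), Col23a1 (37.2), Col27a1 (34.2), Col6a2 (24.9, both windows), Col25a1 (24.0), Col4a5 (23.1), Col4a4 (12.3), Col8a2 (12.3) and Col9a2 (11.3). Of the fibrillar collagens, Col27a1 was the only one with a window and a peak in all 12 libraries. Col5a1 and Col5a3 had a promoter peak in 11 libraries, Col11a2 in 10 and Col11a1 in 9, and the medians of these 4 lay between 8.16 and 9.95 scaled tags. No peak was listed on the windows of Col10a1, Col15a1, Col28a1, Col3a1, Col6a4 or Col9a1. A GCGTG match was found in 26.3% of collagen windows and 38.8% of all windows, CCAAT in 34.2% and 38.5%, GGGCGG in 60.5% and 46.7%, TATAAA in 13.2% and 12.7%, and TGANTCA in 2.63% and 7.04%. A match is a run of letters, not a measured binding site.

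Counting all collagen regions, promoters included, a larger share was listed in a single library than of regions at large. Of the 2185, 1266 (57.9%) were listed in 1 library alone, against 49.4% of all regions, and 241 (11.0%) had a peak in every library, against 15.8%. The test on counts was limited to those 241 regions, in 40 genes, since an unlisted site has no count. They comprised 175 inside a gene, 21 at a gene end and 45 outside. Col2a1, Col10a1 and Col9a3 had no region with a peak in every library, and Col4a4 had none under its own name because its promoter region also touches Col4a3 and was given to that gene. The rule's 50 kb limit fell between a region 48744 bp from Col4a1 (10.1 scaled tags, log2 fold change -0.32 for B2_minus over control) and one 50853 bp from Col22a1 (21.9 scaled tags, 0.25).

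The share of regions in every library varied by class. It was highest for the multiplexins Col15a1 and Col18a1 (48 of 254 regions, 18.9%) and lowest, among classes with more than 1 gene, for the transmembrane collagens (16 of 321, 4.98%). Col18a1 alone had 33 such regions of its 159 and Col15a1 15 of 95. By contrast, Col23a1 had 4 of 128 and Col13a1 2 of 92. Col27a1, a fibrillar collagen best known from cartilage, had 26 of 126, Col4a1 16 of 113 and Col12a1, a FACIT collagen on the surface of type I fibrils, 15 of 62. Col5a1, a chain that sets fibril diameter, had 7 of 121.

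Some collagen regions were among the stronger open sites. The highest region of Col15a1 averaged 92.9 scaled tags over the 12 libraries, above 98.3% of all 101575 regions with a peak in every library, whose median was 23.3. That of Col18a1 averaged 92.6, that of Col12a1 91.6, that of Col4a1 83.5 and that of Col27a1 80.9 scaled tags. Each of these lay inside its gene except for Col4a1, where the region lay 24810 bp outside. Col15a1 combined the strongest collagen region with a promoter window that had no peak. Because a region's value is the count of its highest peak, and nearly all peaks are 200 bp wide, these levels can be set side by side.

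Within the fibrillar class the highest region averaged 77.6 scaled tags at Col5a3, 69.4 at Col1a1, 61.8 at Col24a1, 29.8 at Col5a1, 25.5 at Col5a2, 22.0 at Col11a1, 20.3 at Col11a2, 12.5 at Col3a1 and 11.5 at Col1a2. The type I and type III chains thus differed: Col1a1 had 7 regions in every library, whereas Col1a2 and Col3a1 had 1 each. In the basement membrane class the highest region averaged 56.3 at Col4a2, 55.0 at Col4a6, 25.0 at Col4a5 and 12.6 at Col4a3. In the FACIT class it was 76.4 at Col16a1, 55.8 at Col22a1, 47.4 at Col14a1, 19.9 at Col9a2, 16.7 at Col20a1, 16.3 at Col19a1 and 11.2 at Col9a1. Beaded filament collagens, the type VI chains, ranged between 16.7 at Col6a4 and 45.6 at Col6a5, with Col6a6 at 38.3, Col6a1 at 32.6, Col6a3 at 25.2 and Col6a2 at 24.8. The remaining genes had 56.0 (Col23a1), 49.9 (Col8a1), 34.5 (Col26a1), 34.3 (Col17a1), 31.9 (Col28a1), 31.1 (Col8a2), 28.4 (Col13a1), 23.3 (Col25a1) and 21.8 scaled tags (Col7a1, the anchoring fibril).

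The comparison of B2_minus with control asked whether riboflavin deficiency changed accessibility at these regions. Averaged over both Ad arms, edgeR called 11 of 241 collagen regions at an adjusted p under 0.05, 4.56% of them, against 5.78% of all regions tested. Of the 11, 3 were higher in B2_minus, at Col4a1, Col4a5 and Col27a1, and 8 were lower, at Col1a1, Col5a1 and Col8a1 (2 regions each), Col4a2 and Col18a1. Higher calls made up 1.24% of the collagen regions and 2.45% of all regions, and lower calls 3.32% and 3.33%. The collagen regions as a set were centred near 0. Their median log2 fold change was -0.02, with quartiles at -0.17 and 0.10, beside a median of 0.00 and quartiles at -0.13 and 0.12 for all regions. In 117 regions the estimate was positive and in 124 negative. At 5 collagen regions all 6 B2_minus libraries lay beyond all 6 control libraries, 2.07% of the 241, against 2.23% of all regions.

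The calls are few and their number depends on the model. DESeq2 called 0 of the 241 (0.0443% of all regions), edgeR with the variance held at or above Poisson noise called 3 (1.24%, against 0.981% of all) and limma called 11 (4.56%, against 5.31% of all). When library sizes came from listed tags, in place of TMM, the median of all regions moved to 0.10 and edgeR called 23 collagen regions (9.54%, against 11.6% of all), 18 higher and 5 lower. When a peak was asked in only 3 libraries, 659 collagen regions were tested, with each missing value set to that library's lowest listed count. Of these, 9 were called (1.37%, against 1.65% of all), 5 higher and 4 lower, and 2 of the 11 regions named here passed.

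Type I collagen is the main protein of scar tissue, and its chain Col1a1 had 2 regions that fell. The region chr11:94915755-94916007, which lies 20217 bp outside the gene, had 36.7, 34.1 and 34.7 scaled tags in B2_minus with Ad_Cont, against 58.6, 47.8 and 43.2 in control with Ad_Cont. With Ad_Cre it had 33.4, 40.2 and 29.0 in B2_minus, against 49.6, 40.8 and 49.9 in control. All 6 B2_minus libraries lay below all 6 controls, though the 40.2 and the 40.8 nearly met. The averaged log2 fold change was -0.47 (SE 0.0985, edgeR adjusted p 0.000638), with -0.49 in the Ad_Cont arm and -0.45 in the Ad_Cre arm.

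The other Col1a1 region, chr11:94928864-94929129 and 7095 bp outside, was the gene's strongest. It had 54.7, 64.0 and 57.9 scaled tags in B2_minus with Ad_Cont, against 78.5, 72.7 and 81.0 in control. In the Ad_Cre arm it had 67.8, 66.1 and 70.7 in B2_minus, against 83.8, 62.6 and 73.6 in control. The groups were apart with Ad_Cont and overlapped with Ad_Cre. Averaged, the log2 fold change was -0.25 (SE 0.0695, edgeR adjusted p 0.0168). It was -0.40 with Ad_Cont (edgeR adjusted p 0.0242) and -0.10 with Ad_Cre (edgeR adjusted p 0.724). All 7 tested Col1a1 regions had negative estimates with a median of -0.21, but with library sizes from listed tags 6 of 7 did. The only tested Col1a2 region had -0.17 and the only Col3a1 region 0.21, and neither passed the test (edgeR adjusted p 0.666 and 0.563).

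Type V collagen co-assembles with type I and is needed to start fibrils. Its chain Col5a1 had 2 regions that fell, both outside the gene. The region chr2:27858598-27858984, 27397 bp away, had 8.06, 8.53 and 7.36 scaled tags in B2_minus with Ad_Cont, against 14.4, 11.9 and 22.7 in control. With Ad_Cre it had 12.5, 11.5 and 7.25 in B2_minus, against 18.7, 16.9 and 19.3 in control. The groups did not overlap within either arm, and several B2_minus values sat just above the lowest listed counts, so the averaged log2 fold change of -0.92 (SE 0.183, edgeR adjusted p 0.000355) can show no loss below those counts.

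The second Col5a1 region, chr2:27844909-27845200 and 41181 bp away, had 20.6, 30.9 and 20.0 scaled tags in B2_minus with Ad_Cont, against 32.0, 33.8 and 34.5 in control. In the Ad_Cre arm it had 16.7, 33.5 and 27.2 in B2_minus, against 36.4, 37.8 and 34.2 in control. The B2_minus libraries were spread more widely than the controls but lay below them within each arm. Over both arms the log2 fold change was -0.48 (SE 0.126, edgeR adjusted p 0.00874). All 7 Col5a1 regions had negative estimates, with a median of -0.28, although 2 of the 7 turned positive with library sizes from listed tags. A further Col5a1 region, inside the gene at chr2:27888947-27889531, was the only collagen region listed in all 6 control libraries and in no B2_minus library. Of 2185 collagen regions and 642948 regions in all, 1 and 76 showed that pattern. Its counts were 10, 8 and 11 tags in control with Ad_Cre and 8, 8 and 7 in control with Ad_Cont, just above the lowest listed counts. The opposite pattern was seen at 0 of the 2185 and 45 of the 642948. Both patterns were so rare that counts of 1 and 0 say nothing about collagen regions as a set. Such regions were not part of the count test.

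Col27a1 had the only fibrillar region that rose. At chr4:63259693-63260010, inside the gene, B2_minus with Ad_Cont had 15.2, 17.1 and 21.0 scaled tags, against 8.84, 6.97 and 7.56 in control. With Ad_Cre, B2_minus had 16.7, 11.5 and 15.4, against 13.2, 8.95 and 16.6 in control. The groups were apart with Ad_Cont, where the control values were near the lowest listed counts, and overlapped with Ad_Cre. The log2 fold change was 1.17 with Ad_Cont (SE 0.271, edgeR adjusted p 0.0116), 0.14 with Ad_Cre (edgeR adjusted p 0.858) and 0.66 averaged (SE 0.183, edgeR adjusted p 0.0157). The difference between the arms, -1.03, had an edgeR adjusted p of 0.945 and an unadjusted p of 0.00595. None of the other tested Col27a1 regions, of 26 in all, passed, and the gene's median was 0.00.

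Among the basement membrane collagens, calls ran in both directions. The region chr8:11183643-11183940, 14483 bp outside Col4a1, had 46.6, 37.3 and 42.1 scaled tags in B2_minus with Ad_Cont, against 26.5, 27.9 and 27.0 in control. With Ad_Cre it had 35.5, 42.1 and 51.7 in B2_minus, against 29.8, 32.8 and 35.0 in control. All 6 B2_minus libraries lay above all 6 controls. Its averaged log2 fold change was 0.52 (SE 0.108, edgeR adjusted p 0.000574). A neighbouring region, chr8:11173870-11174161 and 24262 bp outside Col4a1, also had its 6 B2_minus libraries (44.8 to 51.2 scaled tags) above the 6 controls (34.5 to 43.8), but with a log2 fold change of 0.27 it did not pass (edgeR adjusted p 0.0561). It is named because it is 1 of the 5 collagen regions whose groups did not overlap, a choice made after its values were seen. The fifth of those, inside Col18a1 at chr10:77127909-77128199, had 38.9 to 48.0 in B2_minus and 30.9 to 38.8 in control (log2 fold change 0.28, edgeR adjusted p 0.071).

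Col4a2, the partner chain of Col4a1, had a region inside the gene at chr8:11323205-11324093 that fell. It had 29.6, 17.1 and 28.4 scaled tags in B2_minus with Ad_Cont, against 43.1, 33.8 and 34.5 in control. In the Ad_Cre arm it had 25.0, 31.6 and 29.9 in B2_minus, against 34.2, 37.8 and 37.7 in control. All 6 B2_minus libraries lay below the controls. Averaged, the log2 fold change was -0.44 (SE 0.118, edgeR adjusted p 0.0109). At the shared promoter of the pair the log2 fold change was -0.19 (edgeR adjusted p 0.353).

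Col4a5, a chain of the basement membranes of kidney and other epithelia, had a region inside the gene at chrX:141533489-141533799 that rose. It had 33.2, 24.5 and 29.5 scaled tags in B2_minus with Ad_Cont, against 15.5, 25.9 and 17.3 in control. With Ad_Cre it had 31.3, 27.8 and 29.9 in B2_minus, against 18.7, 24.9 and 21.9 in control. Of the B2_minus libraries, 5 of 6 lay above every control. The averaged log2 fold change was 0.50 (SE 0.138, edgeR adjusted p 0.0151), and both regions at the end of the gene had positive estimates, 0.19 and 0.22, without passing.

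Type VIII collagen is a short chain collagen of vessel walls and of the membrane beneath endothelia. Its chain Col8a1 had 2 regions that fell, both inside the gene. At chr16:57649905-57650157, B2_minus with Ad_Cont had 36.7, 38.4 and 44.2 scaled tags, against 63.0, 53.8 and 51.8 in control. With Ad_Cre, B2_minus had 52.2, 44.1 and 43.5, against 58.4, 52.7 and 60.5 in control. The groups were apart within each arm, with 1 B2_minus library with Ad_Cre, at 52.2, close to the lowest control. The averaged log2 fold change was -0.40 (SE 0.0861, edgeR adjusted p 0.000963).

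At chr16:57671659-57671952, B2_minus with Ad_Cont had 34.0, 44.8 and 27.4 scaled tags, against 47.5, 47.8 and 42.1 in control. With Ad_Cre, B2_minus had 39.6, 42.1 and 41.7, against 43.0, 54.7 and 51.7 in control. The groups overlapped with Ad_Cont and were narrowly apart with Ad_Cre. Over both arms the log2 fold change was -0.33 (SE 0.0962, edgeR adjusted p 0.0231).

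Col18a1, the collagen gene with the most tested regions, had 1 call among its 33. At chr10:77151549-77151879, inside the gene, B2_minus with Ad_Cont had 17.9, 25.6 and 20.0 scaled tags, against 29.8, 24.9 and 28.1 in control. With Ad_Cre, B2_minus had 27.1, 14.4 and 19.9, against 33.1, 23.9 and 28.9 in control. The groups overlapped in both arms. The averaged log2 fold change was -0.44 (SE 0.142, edgeR adjusted p 0.0444), and 18 of the gene's regions had positive and 15 negative estimates.

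**Figure D2:**
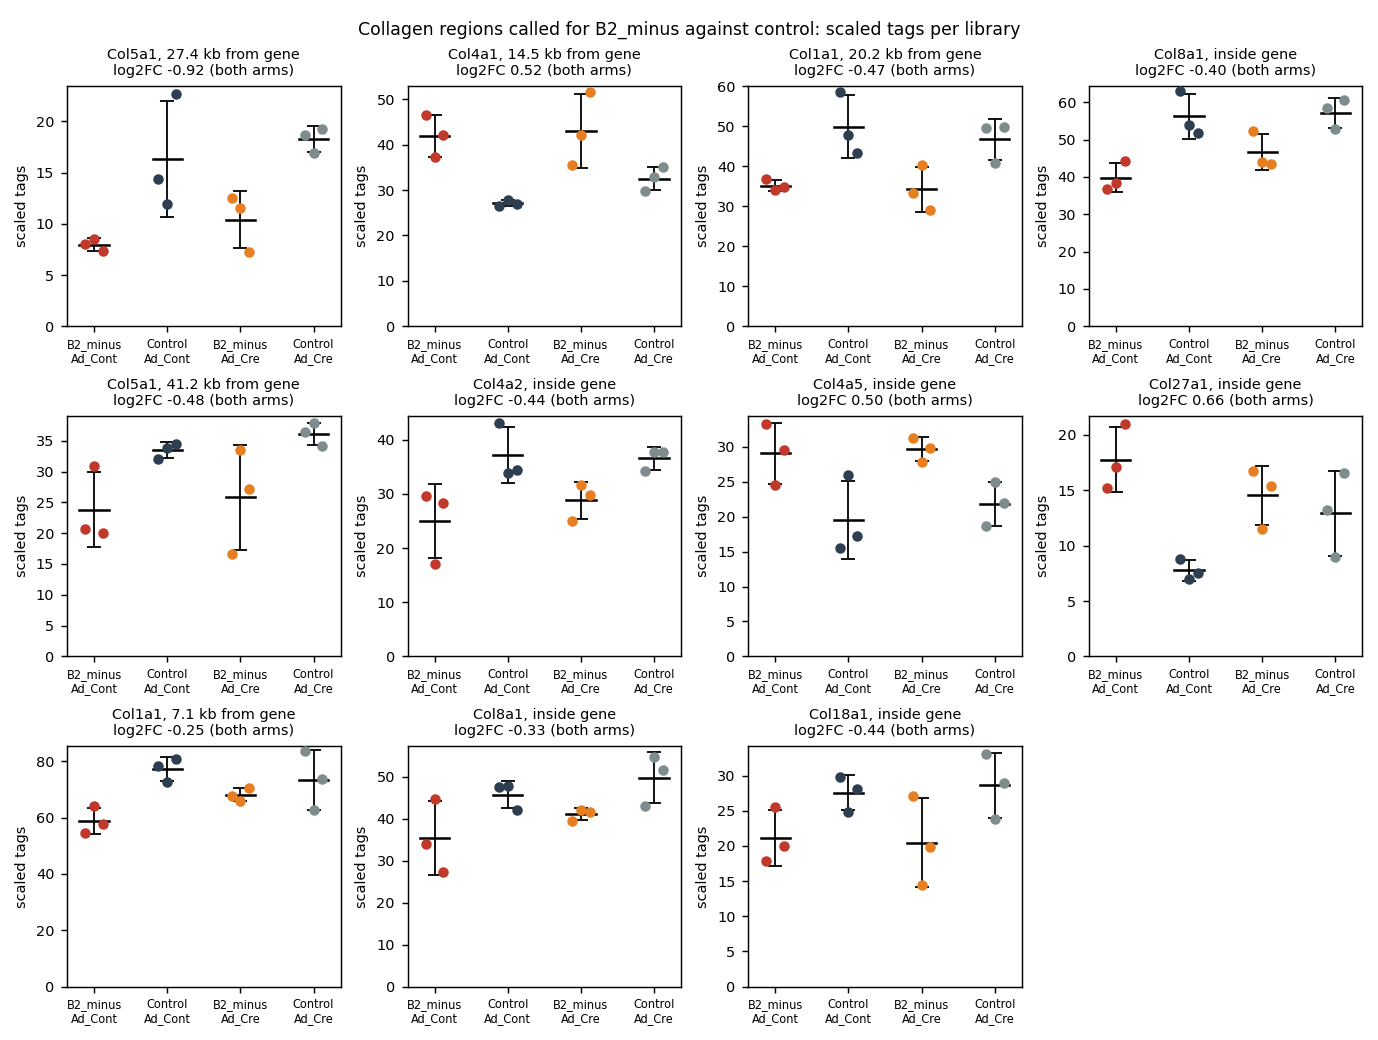
Scaled tags in each of 12 libraries at the 11 called collagen regions, in order of adjusted p; points are libraries, the horizontal line the group mean and the bar its SD (n = 3). At the Col4a1 region all 6 B2_minus libraries (35.5 to 51.7) lie above all 6 controls (26.5 to 35.0), while at the Col27a1 region the groups with Ad_Cre overlap.

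Of the 11 calls, 4 held without any 1 of the 12 libraries: Col5a1 (27397 bp outside), Col4a1, Col1a1 (20217 bp outside) and Col8a1 (the region at 57649905). The others were lost when 1 library was left out, as edgeR adjusted p-values show. The second Col5a1 region lost its call without B2_minus_Ad_Cre replicate 1 (0.0626). The Col4a2 region lost it without B2_minus_Ad_Cont replicate 2 (0.0713) or Control_Ad_Cont replicate 1 (0.0537), and the Col4a5 region without replicate 1 of B2_minus_Ad_Cont (0.0719) or of Control_Ad_Cont (0.0598). The Col27a1 region lost it without B2_minus_Ad_Cont replicate 3 (0.0508), Control_Ad_Cont replicate 2 (0.0513) or Control_Ad_Cre replicate 2 (0.0669). The second Col1a1 region lost it without B2_minus_Ad_Cont replicate 1 (0.0655), Control_Ad_Cont replicate 3 (0.0522) or Control_Ad_Cre replicate 1 (0.0904). The second Col8a1 region lost it without replicate 1 (0.0585) or 3 (0.111) of B2_minus_Ad_Cont, replicate 1 (0.0503) or 2 (0.0596) of Control_Ad_Cont, or replicate 2 (0.0725) or 3 (0.0574) of Control_Ad_Cre. The Col18a1 region lost it without replicate 1 (0.135) or 3 (0.0796) of B2_minus_Ad_Cont, replicate 1 (0.0991) or 3 (0.0806) of Control_Ad_Cont, replicate 2 (0.169) or 3 (0.0795) of B2_minus_Ad_Cre, or replicate 1 (0.12) or 3 (0.0828) of Control_Ad_Cre.

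By class, the fibrillar regions had 1 higher and 4 lower calls among 56 (8.93% called, against 5.78% of all regions), a median of -0.06, and 34 negative against 22 positive estimates. With library sizes from listed tags that split turned to 25 negative and 31 positive. New library sizes shift every region by nearly the same amount. The median relative to that of all regions, -0.07 under either scaling, therefore could not show a difference between the scalings. Summed over the 56 regions, B2_minus with Ad_Cont had 1704.0 ± 15.8 scaled tags and control with Ad_Cont 1794.0 ± 21.2 (SD, n = 3 libraries each), and the groups did not overlap. With Ad_Cre the sums were 1743.3 ± 42.2 in B2_minus and 1835.5 ± 65.4 in control, and the groups overlapped. The 9 short chain regions had 0 higher and 2 lower calls (22.2%) and a median of -0.17. Their sums were 200 ± 6.44 in B2_minus and 229 ± 8.40 in control with Ad_Cont, and 214 ± 6.10 and 244 ± 9.79 with Ad_Cre, apart in both arms. The sums are given without a test and include the called regions. The largest fibrillar falls in B2_minus with Ad_Cont were at Col1a1 (264 against 326) and Col5a1 (113 against 148). Col27a1 had 891 against 874 there. With Ad_Cre they were at Col1a1 (285 against 324), Col27a1 (877 against 909) and Col5a1 (126 against 153). Of the short chain genes, Col8a1 had 122 against 148 with Ad_Cont and 134 against 158 with Ad_Cre. Col8a2 had 77.5 against 81.1 and 79.3 against 86.1.

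Among the remaining classes, basement membrane regions had 2 higher and 1 lower calls among 32 (9.38%) and a median of 0.01. The multiplexins had 0 higher and 1 lower among 48 (2.08%) and a median of 0.02. FACIT (45 regions, median -0.03), beaded filament (24, 0.01), transmembrane (16, 0.02), and the group of Col26a1 and Col28a1 (10, 0.03) had no call, and neither had the 1 region of Col7a1, with an estimate of -0.37. These class counts hold for TMM scaling. With library sizes from listed tags 11.6% of all regions were called, the share beside which the class counts are to be read. EdgeR then called 5 higher and 0 lower of 45 FACIT regions, 2 and 0 of 24 beaded filament regions and 4 and 0 of 48 multiplexin regions. It called 4 and 1 of 32 basement membrane regions, 3 and 3 of 56 fibrillar regions and 0 and 1 of 9 short chain regions. In the FACIT class all 7 regions of Col16a1 had negative estimates, with a median of -0.09 and none passing, and with library sizes from listed tags 4 of the 7 were positive. Over all 241 regions the sum was 6864.8 ± 5.84 scaled tags in B2_minus and 6942.3 ± 55.7 in control with Ad_Cont, and 6935.1 ± 39.5 and 7040.8 ± 91.6 with Ad_Cre.

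**Figure D3:**
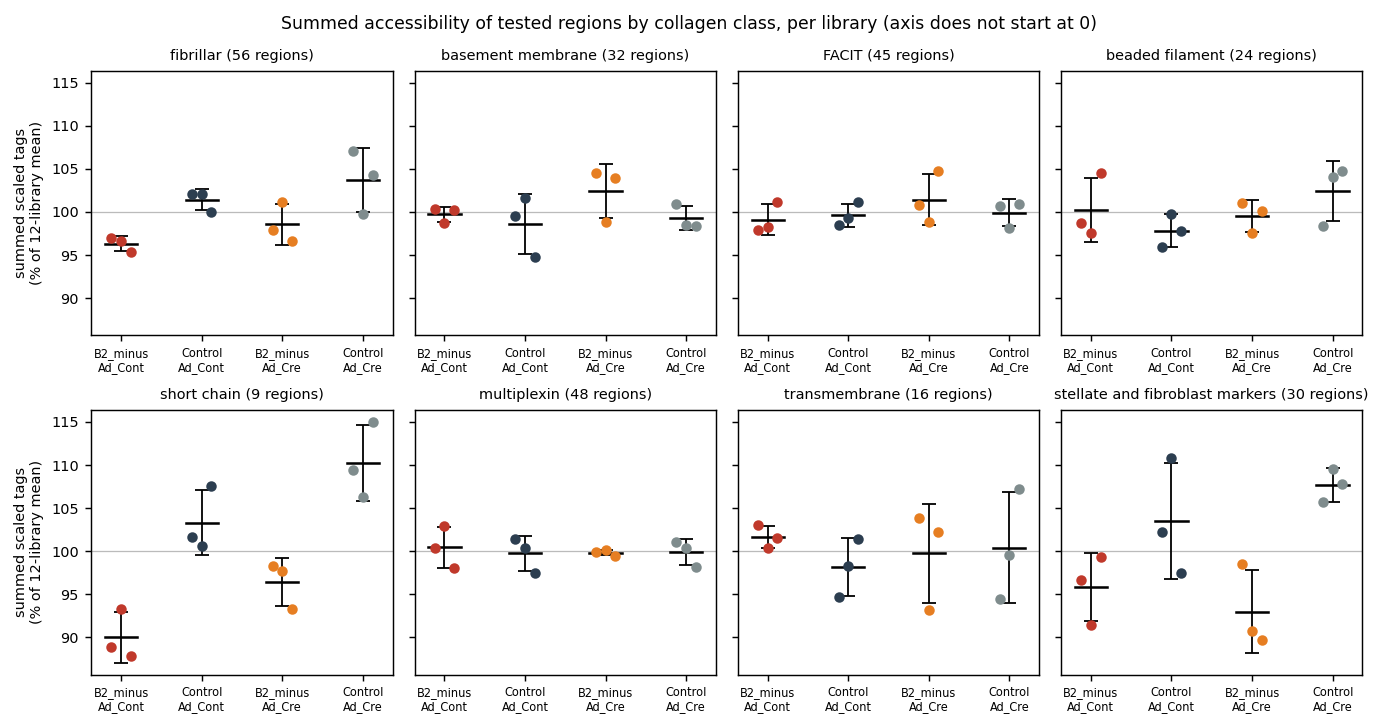
Scaled tags summed over the tested regions of 7 collagen classes and of stellate and fibroblast markers in each library, as a percentage of the set's mean over 12 libraries (axis not starting at 0); points are libraries, lines group means and bars SD (n = 3). Short chain sums lie at 87.8 to 98.3% in B2_minus and 100.6 to 115.0% in control, and the stellate and fibroblast markers at 89.7 to 99.3% and 97.5 to 110.8%.

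Regions of markers of other liver cells were also called for diet, to be read against 5.78% called over all regions, 2.45% higher and 3.33% lower. The 30 regions of stellate and fibroblast markers had 0 higher and 3 lower calls (10.0% called, at Lrat and 2 at Rgs5) and a median of -0.13. Their sums were 596 to 647 scaled tags in B2_minus and 635 to 722 in control with Ad_Cont, and 584 to 641 and 688 to 714 with Ad_Cre. The 33 regions of bile duct markers had 0 higher and 5 lower calls (15.2%) and a median of -0.12, the 50 of endothelial markers 3 higher and 3 lower, and the 5 of Kupffer cell markers 0 and 1. The 107 hepatocyte marker regions had 7 higher and 2 lower calls (8.41%) and a median of 0.06. The part of such cells in the lower signal at Col1a1, Col5a1 and Col8a1 was not tested.

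Taken by arm, the B2_minus effect was called at 5 collagen regions with Ad_Cont, 2.07% of the 241, against 1.04% of all regions. Of these, 2 were higher (0.423% of all regions were) and 3 lower (0.618%). They were the regions of Col4a1 and Col27a1, which were higher in B2_minus, and the regions of Col1a1 at 94928864, of Col5a1 at 27858598 and of Col8a1 at 57649905, which were lower. The count was 1 without B2_minus_Ad_Cont replicate 1 or 3 or Control_Ad_Cont replicate 1 or 3, and 3 without replicate 2 of either group. The share of all regions called fell as well. It was 0.26%, 0.553% and 0.463% without B2_minus_Ad_Cont replicate 1, 2 and 3, and 0.435% without Control_Ad_Cont replicate 1. With Ad_Cre edgeR called 0, against 1.13% of all regions, with 26 regions at an unadjusted p under 0.05 (10.8%, against 13.4% of all), and limma and DESeq2 also called 0. With library sizes from listed tags edgeR called 8 of the 241 there, all higher, against 4.49% of all regions. The median over all regions was then 0.14. Groups did not overlap at 33 regions with Ad_Cont (13.7%, against 17.3% of all) and at 43 with Ad_Cre (17.8%, against 17.5%). Both arms' own estimates had medians near 0, at -0.01 with Ad_Cont and -0.02 with Ad_Cre.

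A call in the Ad_Cont arm and none in the Ad_Cre arm does not show that the arms differ. The interaction of diet and Ad_Cre was called at 0 of the 241 collagen regions and at 0% of all regions by edgeR, and at 0 collagen regions by limma and DESeq2, with 10 collagen regions at an unadjusted p under 0.05 (4.15%, against 5.14% of all). No collagen region had its groups apart in opposite directions in the 2 Ad arms, a pattern seen at 0.393% of all regions.

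Ad_Cre against Ad_Cont is the comparison meant to show the loss of Ahr. These data did not check its removal (lowest edgeR adjusted p 0.411 at the 9 regions in or near Ahr). The counts here therefore compare the Ad_Cre and Ad_Cont libraries as labelled. EdgeR called 0 of 241 with Ad_Cre in B2_minus (0.00197% of all regions), 0 in control (0.00591%) and 0 averaged over diets (0.0955%). Unadjusted p-values under 0.05 numbered 16, 12 and 17 in those comparisons (6.64%, 4.98% and 7.05% of the collagen regions, against 7.29%, 7.82% and 9.87% of all), and limma and DESeq2 called 0 in each. Averaged over diets, the collagen log2 fold changes ran between -0.38 and 0.52 with a median of 0.03, beside 0.00 for all regions. At 0 of the 241 regions did all 6 Ad_Cre libraries lie below all 6 Ad_Cont libraries. At 2 regions they lay above (0.83%, against 0.199% of all, for that direction alone). Both are named, and the direction was picked, after their values were seen. One, inside Col22a1, a FACIT collagen of tissue junctions, had 34.2 to 44.8 scaled tags with Ad_Cre and 24.2 to 34.1 with Ad_Cont (chr15:72035103-72035366, log2 fold change 0.42, edgeR adjusted p 0.0755). The other, inside Col18a1, had 65.3 to 71.7 and 54.7 to 62.7 (chr10:77116546-77116798, log2 fold change 0.20, edgeR adjusted p 0.261).

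Which collagen regions were listed at all also differed between libraries. B2_minus libraries listed 475 to 571 collagen regions and control libraries 489 to 821, the highest in control with Ad_Cre (701 to 821). As a share of all regions listed this was 0.250 to 0.263% in B2_minus and 0.264 to 0.313% in control. The 4 longest lists, all of control libraries, held the 4 largest collagen shares. The shortest list, of Control_Ad_Cont replicate 1 with 185127 regions, had a share of 0.264%. The longest B2_minus list, of B2_minus_Ad_Cre replicate 3 with 217127 regions, had 0.263%. Collagen regions found in no other library ranged between 24 and 84 in B2_minus and between 45 and 245 in control libraries. The part of list length in the lower share of B2_minus was not tested.

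Beside the collagens, 48 genes that make, process, degrade or bind collagen were described, 43 of them with a tested region, 212 regions in all. Averaged over arms, edgeR called 6 higher and 9 lower (7.08% called, against 5.78% of all regions), with a median of -0.01. Genes of synthesis and export (69 regions) had 2 higher and 2 lower calls (5.8%), those of procollagen processing and crosslinking (64) 0 and 2 (3.12%), those of degradation (19) 0 and 2 (10.5%), and the receptors (60) 4 and 3 (11.7%). The lowest adjusted p was at P3h2, a prolyl 3-hydroxylase that modifies type IV collagen, inside the gene at chr16:26003315-26003673. It had 25.1, 30.9 and 27.4 scaled tags in B2_minus with Ad_Cont, against 39.8, 42.8 and 42.1 in control, and 20.9, 19.2 and 23.6 in B2_minus with Ad_Cre, against 34.2, 32.8 and 34.2 in control. All 6 B2_minus libraries lay below all 6 controls (log2 fold change -0.63, edgeR adjusted p 0.000149).

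Other machinery regions that fell included 2 near Timp2, an inhibitor of matrix metalloproteinases (log2 fold changes -0.58 and -0.57), and regions of P4ha2, a subunit of prolyl 4-hydroxylase (-0.54), Adamts2, the procollagen N-proteinase (-0.51), Tll2, a protease related to the procollagen C-proteinase (-0.46), and Ddr1, a receptor tyrosine kinase for collagen (-0.26). Those that rose included 2 regions outside Itgb1, the common chain of collagen-binding integrins (0.46 and 0.35), and regions inside its partners Itga1 (0.36) and Itga2 (0.25), and 1 at an end of P3h2 (0.30). All of these had an edgeR adjusted p under 0.05. P3h2 therefore had calls in both directions. So had Itga2, where a region 1539 bp outside the gene fell (-0.36, edgeR adjusted p 0.0359). A region inside Itga11, another of the receptors, also fell (-0.59, edgeR adjusted p 0.0338). One outside Mia3, a gene of synthesis and export, rose (0.27, edgeR adjusted p 0.0334).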

How the data were processed

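The authors' deposited hepatocyte lists gave peak positions and, per peak, a tag count as a whole number. The files had no header, and the unit was taken from the values. Per the submitters' processing notes, Bowtie2 and HOMER and the builds hg38 and mm10 were used, with no version or role named. Read shifting, duplicate handling and peak thresholds: not given in the sources used here. Human HepG2 lists were not used. Peaks on chromosome Y or unplaced sequences (0.151%) were left out.

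Merged regions were given to the nearest of 21627 protein-coding genes with bedtools 2.31.1. All 101575 regions with a peak in every library were fitted together, as 4 groups, by the quasi-likelihood F test of edgeR 4.0.16 after TMM scaling, with the variance not bounded at Poisson, in R 4.3.3, with Benjamini-Hochberg adjustment over all of them and a threshold of 0.05. The fit was run on simulated counts with Poisson noise, which is wider than the spread of these replicates, so that run does not check the fit at their spread. DESeq2 1.42.0 and limma 3.58.1 on log2(scaled tags + 1) were alternatives. Replicates varied less than Poisson noise, with a mean variance of 0.614 times the Poisson value over all tested regions and 0.638 over the collagen regions. Members, gene lists, the averaged contrasts and the form of the edgeR fit were chosen with earlier results of these data known. Named regions are all collagen regions called, the strongest region of each collagen gene, and the called regions of the collagen machinery genes. Of the latter, 12 were named by rule. Those of Itga11 and Mia3 and the falling region of Itga2 were added after their values were seen.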

Additional observations from a re-analysis of the deposited data

How the results depend on the processing

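Against 5 collagen regions called for B2_minus with Ad_Cont, 0 with Ad_Cre and 11 averaged, the counts were 0, 0 and 7 with a region's peaks summed, 0, 0 and 9 with a peak asked in 3 libraries (252554 regions tested, 659 of them collagen, with 2 of the 11 keeping their call), 2, 8 and 23 with library sizes from listed tags, 0, 0 and 0 with DESeq2, 0, 0 and 3 with edgeR bounded at Poisson, and 3, 0 and 7 within 10 kb of a gene, which leaves fewer collagen regions. Except where fewer regions were tested or the model differs by construction, the cause was not tested. With a peak asked in 3 libraries, each missing value was set to that library's lowest listed count. Library sizes from listed tags also moved the collagen median to 0.08, beside 0.10 for all regions. Leaving out 1 library gave 1 to 6 calls with Ad_Cont, 7 to 13 averaged (7 without Control_Ad_Cont replicate 1) and medians between -0.03 and -0.01. With a replicate block the counts were 6, 0 and 13. Same-numbered libraries did not deviate together (correlations of -0.016 to 0.012 over 18 pairs), so the numbers were not taken as pairs. Counts under a 100 bp merge (7, 0 and 14), a mean of at least 20 tags (4, 0 and 10) and limma (5, 0 and 11) stayed within 1.5 times. The share of collagen regions called, averaged over arms, was 2.9% with peaks summed, against 1.45% of all regions. It was 6.67% against 6.25% under the 100 bp merge and 7.58% against 6.29% at a mean of 20 tags. Within 10 kb of a gene it was 3.3% against 5.78%, and with a replicate block 5.39% against 5.75%. With peaks of at least 10 tags, 2 of 2185 collagen regions, at Col18a1 and Col8a1, were listed in every control and no B2_minus library. So were 94 of all 642948 regions. Of the 11 called regions none changed direction where it was compared. With DESeq2 this covers 9 of them, although it gave fold changes for all tested regions. It covers 9 with a mean of at least 20 tags and 7 within 10 kb of a gene, where the others were not tested. Calls for Ad_Cre over Ad_Cont and for the interaction stayed at 0 in each. Regions near 6 to 8 tags, where lists end, limit any loss that could be seen.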
